A study of Mus musculus with 6 samples.

Results

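Cadherins and protocadherins are the calcium-dependent adhesion proteins described here, in primary hippocampal neurospheres grown with norepinephrine or with potassium chloride. The members are all genes whose single symbol in the platform annotation is Cdh followed by a number, or begins with Pcdh. They were 57 of the 19937 genes on the array with a single symbol, each read by its brightest probe set over the 6 arrays. Among them were 18 classical cadherins, 22 genes of the Pcdhb cluster, 12 non-clustered protocadherins and 5 other cadherins. The rule for members used names and brightness, not the difference between treatments, but it was set with earlier results of these data known.

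Neurospheres are free-floating balls of cells that grow from single neural precursors in a dish. Hippocampi came from C57BL/6J males, 8 to 12 weeks old at the time, and the cells grew in medium with EGF and bFGF. Both groups had this medium, to which 10 µM norepinephrine or 15 mM KCl was added, and primary spheres were taken on day 14. The sample titles call them big neurospheres, without giving a size. Each group had 3 samples, 1 array each, and an untreated group was not analysed here. Every difference is therefore norepinephrine minus KCl on the log2 scale, and a value below 0 means a higher reading with KCl. The labels call the samples biological replicates without saying whether they came from separate animals or cultures, so p-values measure only the spread between these samples.

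A cadherin holds neighbouring cells together by binding the same cadherin on the next cell, and its cytoplasmic tail is tied to actin through catenins. Classical cadherins are split into type I, such as N-cadherin, which anchors neural stem cells to their niche, and type II, whose members mark subsets of neurons and glia. The Pcdhb genes lie in a tandem array of single-exon genes beside the Pcdha and Pcdhg genes. Each neuron expresses a few of them, and the combination serves as a surface label by which its branches recognise one another. Non-clustered protocadherins of the delta families act in cell sorting, migration and axon growth.

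Markers of neural stem and precursor cells were bright, with 7 of 8 above the median of all named probe sets. Sox2 stood at the 95.7th percentile and nestin (Nes) at the 87.3th. Endothelial markers were dim, with 0 of 8 above that median, and the percentiles of their means ran from 9.1 (Emcn) to 45.4 (Flt1). Astrocyte markers read higher with norepinephrine in 7 of 7 genes, at a median difference of 1.04. The array of KCl replicate 1 was compressed, its named probe sets having an SD of 1.38 (log2 values) where those of the other arrays had 1.62 to 1.78. On that array dim genes read high. The median of 10 microglial markers was 6.78 there and 5.81 to 6.14 on the other 5 arrays. Values without KCl replicate 1 are therefore given beside the results.

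**Figure D1:**
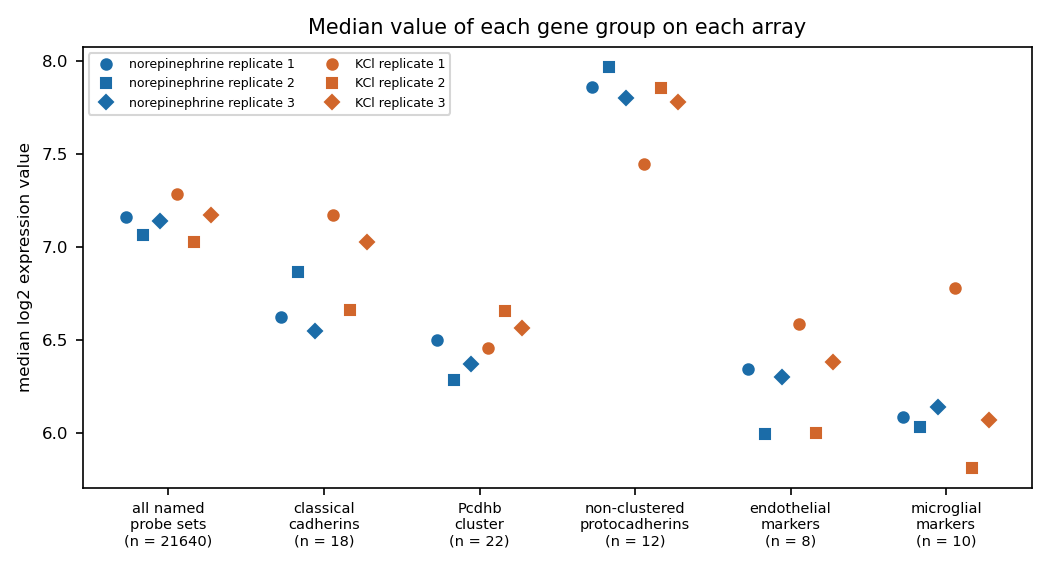
Median log2 expression value (vertical axis) of each gene group (horizontal axis, with its number of probe sets or genes) on each of the 6 arrays, norepinephrine in blue and KCl in orange. KCl replicate 1 reads highest for microglial and endothelial markers and lowest for non-clustered protocadherins, whereas its Pcdhb median of 6.46 lies inside the range of the other 5 arrays, 6.29 to 6.66.

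Across the family, 39 of 57 members read higher with KCl and 18 higher with norepinephrine. The median difference was -0.10, beside -0.075 over all 21640 named probe sets, of which 62.0% read higher with KCl. No member passed. The limma fit, with Benjamini-Hochberg adjustment over all named probe sets, gave 0 of 57 members an adjusted p under 0.05, beside 0% of all named probe sets, and the lowest adjusted p of a member was 0.939. An unadjusted p under 0.05 was found for 4 members, all higher with KCl: Cdh19, Pcdh11x, Pcdhb15 and Pcdhb8. These were 7.02% of the members, beside 3.43% of all named probe sets, made up of 1.24% toward KCl and 2.2% toward norepinephrine. Without KCl replicate 1 it was found for 8 of 57, again all higher with KCl, beside 4.63% of all named probe sets, made up of 2.25% toward KCl and 2.38% toward norepinephrine. On those 5 arrays 0 of 57 members passed (lowest adjusted p = 0.439 by limma), beside 0.0185% of all named probe sets. Without KCl replicate 2 the unadjusted count was 7 of 57, or 12.3%, below the 16.3% of all named probe sets. The groups did not overlap for 9 members, or 15.8%, beside 9.13% of all named probe sets. After centring of the arrays this excess was gone, with 6 members, or 10.5%, beside 10.3%, and without KCl replicate 2 it was 21 members, or 36.8%, beside 42.2%. Of the 9 members, 8 read higher with KCl, or 14% of the members, beside 4.77% of all named probe sets. The ninth was Cdh13, the 1 member whose norepinephrine arrays all lay above the KCl arrays, as did 4.36% of all named probe sets.

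**Figure D2:**
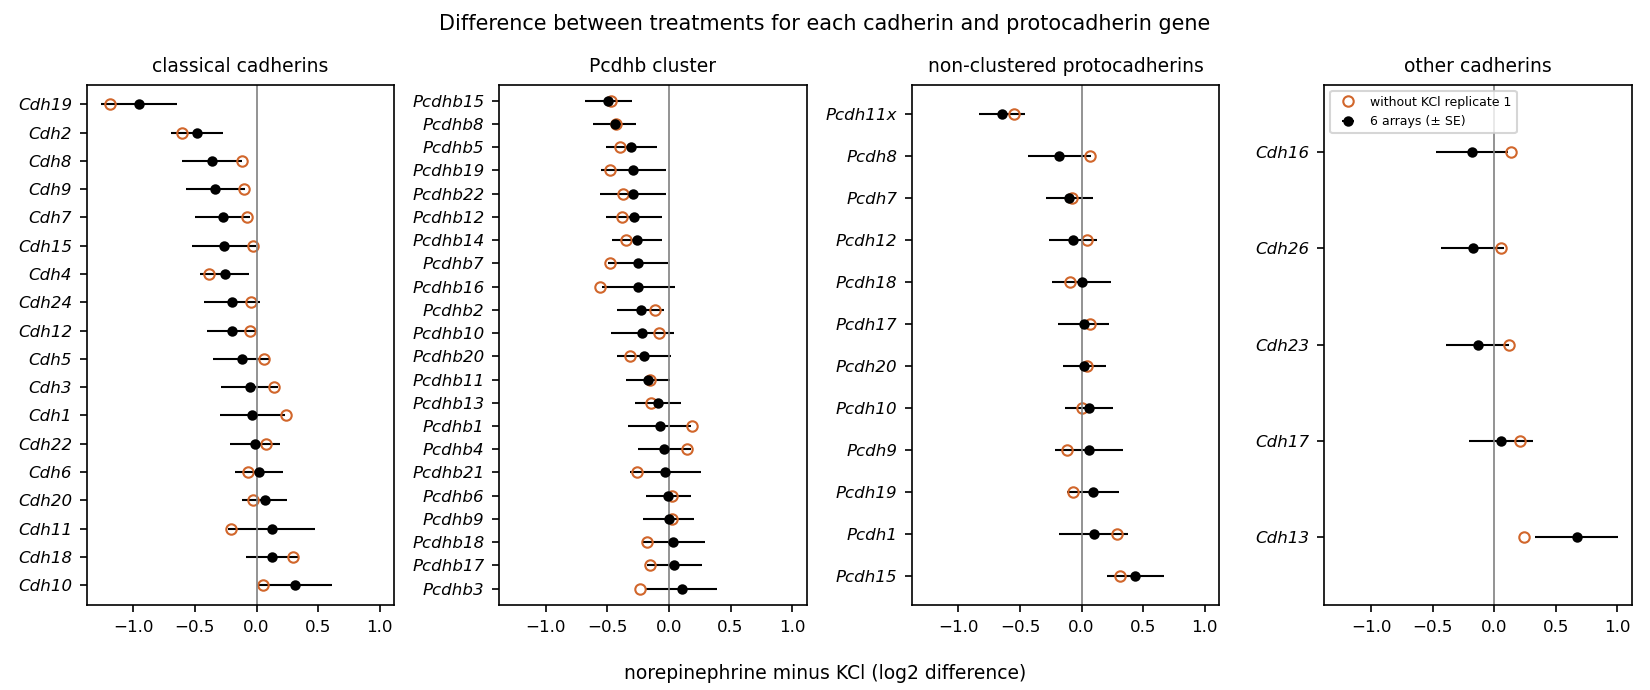
Log2 difference, norepinephrine minus KCl (horizontal axis), of each of the 57 genes in 4 panels by group, as black points with the moderated SE over 6 arrays and as open orange circles without KCl replicate 1. Most Pcdhb genes lie left of 0 with either set of arrays. Among the black points Cdh19 at -0.96 is the lowest and Cdh13 at 0.67 the highest, and the open circle of Cdh19 lies at -1.19.

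The classical cadherins read higher with KCl in 13 of 18 genes, with a median difference of -0.16, or -0.05 without KCl replicate 1. Type I genes read higher with KCl in 5 of 5, at a median of -0.26, but in 3 of 5 at -0.027 without KCl replicate 1. Type II genes did so in 8 of 13. After a further quantile normalization the median of the 18 genes was -0.12, with 13 again toward KCl. The largest difference was that of a type II gene, Cdh19, which is expressed in Schwann cell precursors and in glia of the brain. Cdh19 read 6.47, 7.18 and 6.47 on norepinephrine replicates 1 to 3 and 7.19, 8.23 and 7.56 on KCl replicates 1 to 3. The groups did not overlap, but only narrowly: the highest norepinephrine array, replicate 2, lay just under the lowest KCl array, replicate 1. The means were 6.71 ± 0.41 and 7.66 ± 0.53 (SD, n = 3 each). The difference was -0.96 ± 0.31 (SE), 1.94-fold higher with KCl, with a 95% interval from -1.66 to -0.25 and an adjusted p of 0.939 by limma. It was -1.19 without KCl replicate 1 (adjusted p = 0.439 by limma) and -0.67 without KCl replicate 2. After centring of the arrays the Cdh19 difference was -0.92, and the groups overlapped.

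Markers of the Schwann cell lineage were read beside Cdh19. Of 7 markers, 4 were measured under a single symbol, and 3 of these read higher with KCl, with a median difference of -0.07, or 0.05 without KCl replicate 1. The mean of the 4 was 6.91 to 7.04 on the norepinephrine arrays and 6.75 to 7.31 on the KCl arrays. Sox10, a factor of Schwann and oligodendrocyte lineage cells, differed by 0.20 ± 0.25 (SE), the opposite sign to Cdh19. S100b, Foxd3 and Erbb3 had the sign of Cdh19, at -0.29 ± 0.19, -0.12 ± 0.19 and -0.013 ± 0.257 (SE). Without KCl replicate 1, Sox10 was 0.45, and S100b, Foxd3 and Erbb3 were -0.19, -0.11 and 0.21. The part of Schwann or oligodendrocyte lineage cells in the Cdh19 difference was not tested. In bulk samples, fewer cells of a type and less RNA per cell cannot be told apart.

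Cdh2 encodes N-cadherin, the main cadherin of the neuroepithelium and of the adult stem cell niche. Cdh2 read 9.77, 10.15 and 10.09 with norepinephrine and 10.24, 10.76 and 10.47 with KCl. Every KCl array lay above every norepinephrine array, with a gap smaller than the range within either group. The difference was -0.48 ± 0.21 (SE, n = 3 per group), 1.40-fold higher with KCl, and its 95% interval from -0.97 to 0.0016 just reached 0. Cdh2 kept this sign in all 15 alternatives run, at -0.65 to -0.35. It was -0.61 without KCl replicate 1 (adjusted p = 0.772 by limma) and -0.65 after a further quantile normalization. After centring of the arrays the Cdh2 difference was -0.45, and the groups overlapped.

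R-cadherin, encoded by Cdh4, is a type I cadherin of the developing brain and retina. Cdh4 read 9.19, 8.90 and 8.99 with norepinephrine and 9.03, 9.44 and 9.39 with KCl. The groups overlapped through KCl replicate 1 and norepinephrine replicate 1, and the difference was -0.26 ± 0.20 (SE). Without KCl replicate 1 it was -0.38, and after a further quantile normalization it was -0.41. E-cadherin, Cdh1, is the type I cadherin of epithelia. Its readings were 6.31, 6.25 and 6.33 with norepinephrine and 6.88, 5.85 and 6.26 with KCl, so that the KCl arrays lay on both sides of the other group. The Cdh1 difference was -0.034 ± 0.265 (SE), and its sign turned after centring or further quantile normalization, at 0.0037 and 0.066.

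Cdh20, a type II cadherin, had the brightest probe set of the classical members, although brightness of different probe sets does not rank RNA amounts. Its values were 10.48, 10.58 and 10.56 with norepinephrine and 10.29, 10.50 and 10.63 with KCl. These 6 readings were the closest set among the classical genes named here. The difference was 0.066 ± 0.183 (SE), with a 95% interval from -0.35 to 0.48, and its sign turned after further quantile normalization, at -0.12. VE-cadherin, Cdh5, holds endothelial junctions together. Cdh5 read 6.56, 6.35 and 6.49 with norepinephrine and 6.95, 6.20 and 6.61 with KCl, overlapping groups with KCl replicate 1 highest. The mean of the 8 endothelial markers, like Cdh5, was highest on KCl replicate 1 and lowest on KCl replicate 2. It was 5.98 to 6.22 on the norepinephrine arrays and 6.51, 5.95 and 6.38 on KCl replicates 1 to 3, and its part in the Cdh5 values was not tested. The Cdh5 difference of -0.12 ± 0.23 (SE) was 0.060 without KCl replicate 1.

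The other 12 classical genes had differences from -0.36 (Cdh8) to 0.31 (Cdh10), with unadjusted p of 0.175 or more. Toward KCl lay Cdh3 (P-cadherin), Cdh15 (the muscle cadherin), Cdh7, Cdh8, Cdh9, Cdh12, Cdh22 and Cdh24, 8 in all. Cdh6, Cdh10, Cdh11 and Cdh18 lay toward norepinephrine, at 0.02, 0.31, 0.12 and 0.13, and at -0.07, 0.05, -0.21 and 0.30 without KCl replicate 1. For Cdh8, Cdh9 and Cdh7 the differences of -0.36, -0.34 and -0.27 were -0.11, -0.10 and -0.07 without KCl replicate 1. The 2 probe sets of Cdh24 stood at -0.20 each, and those of Cdh18 at 0.13 and -0.08.

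**Figure D3:**
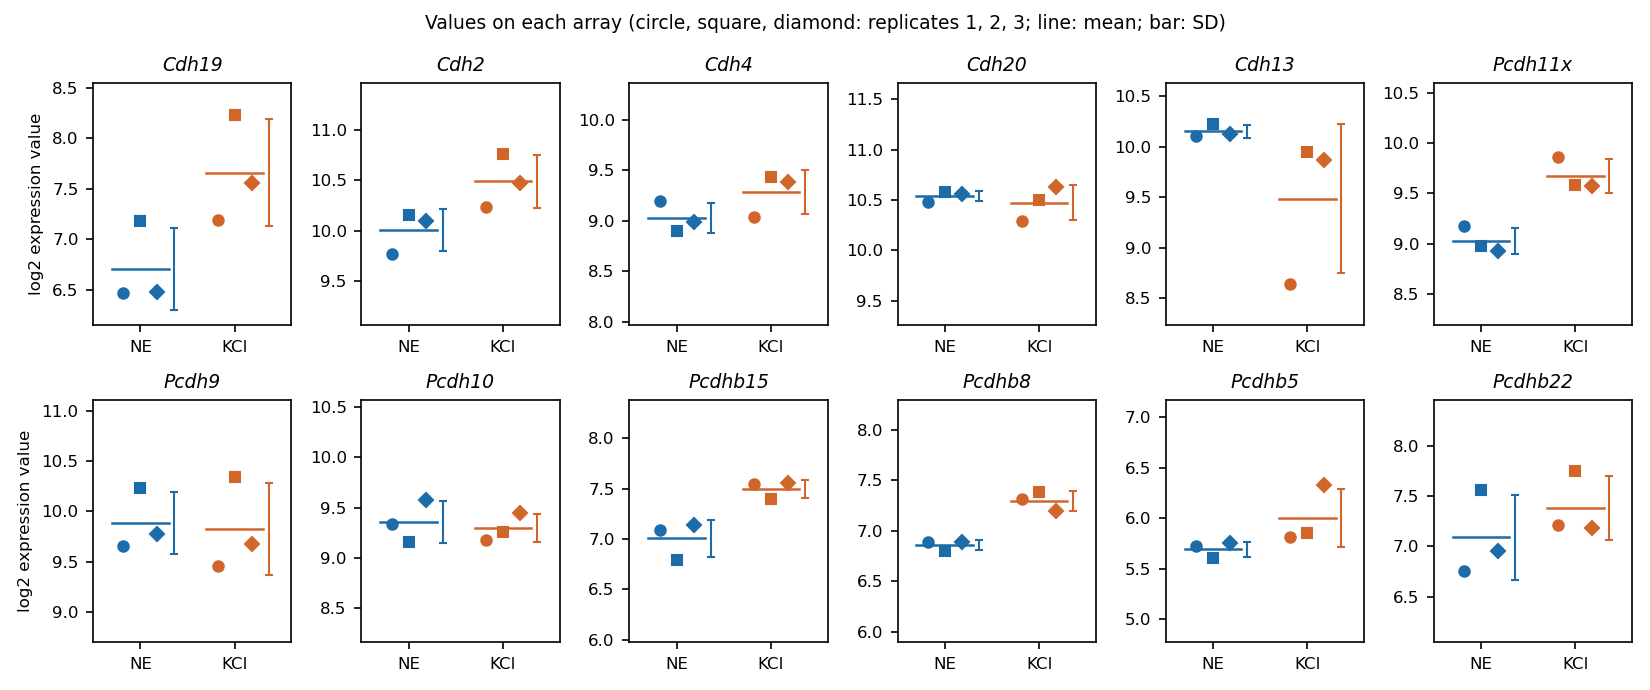
Log2 expression values (vertical axis, the same height in every panel but different starts) of 12 genes on the 3 norepinephrine (NE, blue) and 3 KCl (orange) arrays, with symbols for replicate number, a line for the mean and a bar for the SD. The groups do not overlap for Cdh19, Cdh2, Cdh13, Pcdh11x, Pcdhb15, Pcdhb8 and Pcdhb5; for Cdh13 the low KCl point is replicate 1, at 8.64.

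In the Pcdhb cluster 19 of 22 genes read higher with KCl. Its median difference was -0.21, beside -0.075 over all named probe sets, and differences ran from -0.49 to 0.10. The cluster was dim, with 4 of 22 genes above the median brightness of all named probe sets. Microglial markers, also dim, read higher with KCl in 10 of 10, at a median of -0.22. Without KCl replicate 1, 18 of 22 Pcdhb genes read higher with KCl, at a median of -0.25. The median was then 0.0083 for all named probe sets and 0.013 for the microglial markers. Without KCl replicate 2 the count was 19 of 22 Pcdhb genes. Their median of -0.13 was then no lower than that of all named probe sets, -0.16. On the deposited values the groups did not overlap for 5 of the 22 genes, or 22.7%, all higher with KCl, beside 4.77% of all named probe sets in that direction. After centring of the arrays the groups of Pcdhb5, Pcdhb2 and Pcdhb11 overlapped, and those of Pcdhb15 and Pcdhb8 did not. On the centred values 16 of 22 Pcdhb genes read higher with KCl, at a median of -0.17. After a further quantile normalization of all 6 arrays 14 of 22 read higher with KCl and the median was -0.079. With that normalization on the 5 arrays other than KCl replicate 1, it was -0.27 with 18 of 22. The genes share 1 cluster, the same cells and closely similar sequences, so they are not independent, and how far probes of one gene also read another was not tested.

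The KCl arrays differed in how many Pcdhb genes they held above the gene's norepinephrine mean. KCl replicates 2 and 3 had 17 and 18 of 22 above it, beside 40.1% and 59.4% of all named probe sets on those arrays. KCl replicate 1 had 13 of 22 above it, beside 63.9% of all named probe sets. After a further quantile normalization the counts were 6, 18 and 16 of 22 on KCl replicates 1, 2 and 3. The pattern therefore lay in KCl replicates 2 and 3, with replicate 1 near or under the background of its own array. The mean of the 22 genes was 6.40 to 6.44 on the norepinephrine arrays, and 6.46, 6.64 and 6.66 on KCl replicates 1 to 3.

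**Figure D4:**
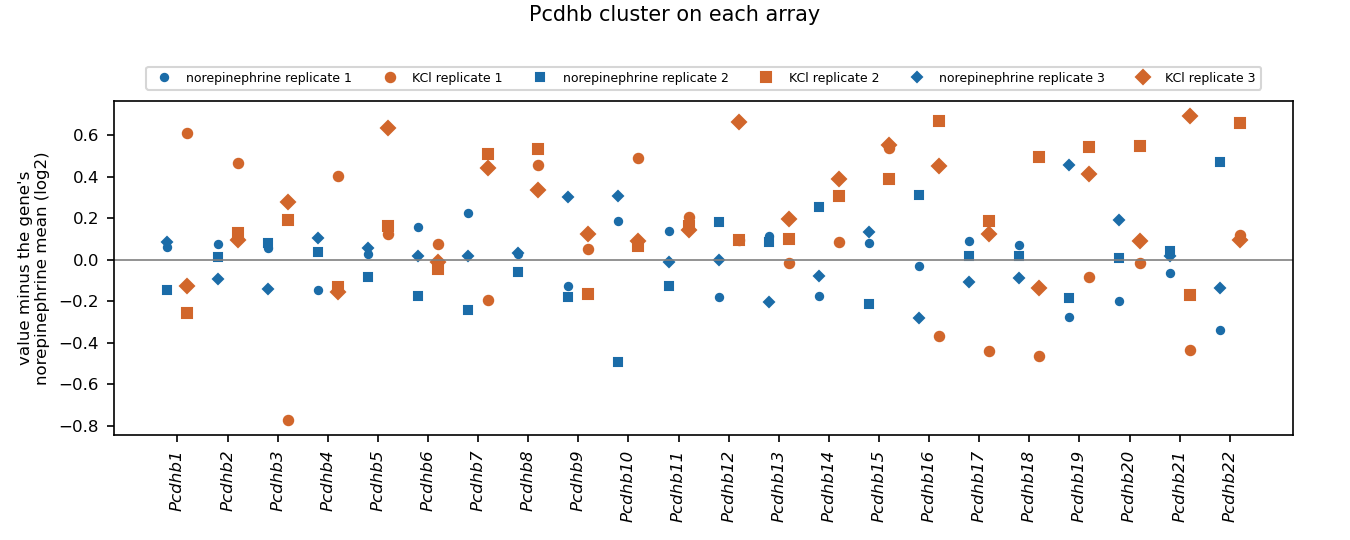
Value of each Pcdhb gene on each array minus that gene's mean over the 3 norepinephrine arrays (vertical axis, log2), for Pcdhb1 to Pcdhb22 by number (horizontal axis), norepinephrine in blue and KCl in orange. KCl squares and diamonds (replicates 2 and 3) lie above 0 for 17 and 18 of the 22 genes and KCl circles (replicate 1) for 13.

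Pcdhb15 had the largest difference of the cluster. Pcdhb15 read 7.09, 6.79 and 7.14 with norepinephrine and 7.54, 7.39 and 7.56 with KCl. All 3 KCl arrays lay close together and above the other group. The difference was -0.49 ± 0.19 (SE, n = 3 per group), 1.41-fold higher with KCl, with a 95% interval from -0.92 to -0.065, and it was -0.47 without KCl replicate 1. The unadjusted p was 0.0285 and the adjusted p 0.939 by limma.

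Pcdhb8 read 6.89, 6.80 and 6.89 with norepinephrine and 7.31, 7.39 and 7.19 with KCl. This was the tightest norepinephrine group of the Pcdhb genes given by array, with an SD of 0.052, and the groups were clear of each other. The difference was -0.44 ± 0.17 (SE), 1.36-fold higher with KCl (adjusted p = 0.939 by limma). It was -0.43 without KCl replicate 1 and -0.49 to -0.33 over 14 alternatives.

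Pcdhb5, Pcdhb2 and Pcdhb11 also had groups that did not overlap on the deposited values, with smaller differences, but that overlapped after centring of the arrays. Pcdhb5 read 5.72, 5.61 and 5.75 with norepinephrine and 5.82, 5.85 and 6.33 with KCl. Its difference of -0.31 ± 0.20 (SE) was -0.14 without KCl replicate 3, the array that stood highest. Pcdhb2 read 6.34, 6.27 and 6.17 with norepinephrine and 6.73, 6.39 and 6.36 with KCl, a difference of -0.23 ± 0.19 (SE). Without KCl replicate 1 it was -0.11. Pcdhb11 read 6.26, 5.99 and 6.11 against 6.33, 6.28 and 6.26, and its groups were separated by the smallest margin of the 3 genes. The Pcdhb11 difference was -0.17 ± 0.18 (SE), and -0.040 after a further quantile normalization.

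Pcdhb17 and Pcdhb22 were, with Pcdhb15, the brightest probe sets of the cluster. Pcdhb17 read 7.39, 7.31 and 7.19 with norepinephrine and 6.86, 7.48 and 7.42 with KCl. KCl replicate 1 was lowest and the other KCl arrays highest, and the difference of 0.044 ± 0.220 (SE) was -0.15 without that array. Pcdhb22 read 6.75, 7.56 and 6.96 with norepinephrine and 7.21, 7.75 and 7.19 with KCl. In both groups replicate 2 was highest, the groups overlapped, and the difference was -0.29 ± 0.27 (SE). It was -0.12 without norepinephrine replicate 1, -0.53 without norepinephrine replicate 2 and -0.11 without KCl replicate 2.

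Of the other 15 Pcdhb genes, 13 read higher with KCl, with differences from -0.29 to 0.10 and unadjusted p of 0.226 or more. Toward KCl at -0.20 or beyond were Pcdhb7, Pcdhb10, Pcdhb12, Pcdhb14, Pcdhb16, Pcdhb19 and Pcdhb20. Between -0.09 and 0.04 were Pcdhb1, Pcdhb4, Pcdhb6, Pcdhb9, Pcdhb13, Pcdhb18 and Pcdhb21, and Pcdhb3 stood at 0.10. Without KCl replicate 1, Pcdhb16 and Pcdhb7 stood at -0.56 and -0.48, with unadjusted p of 0.0237 and 0.0301 and adjusted p of 0.915 and 0.977 by limma. Together with Pcdhb8 and Pcdhb15 they made 4 Pcdhb genes of 22 at an unadjusted p under 0.05 on those 5 arrays, all higher with KCl. Of all named probe sets, 2.25% were at that level in that direction on the same arrays.

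The non-clustered protocadherins showed no common direction: 8 of 12 read higher with norepinephrine, at a median of 0.020 on the deposited values and -0.038 after a further quantile normalization. Of the 12, 8 differed by less than 0.1. Pcdh11x, a delta1 protocadherin of the X chromosome expressed in brain, stood apart from them. Pcdh11x read 9.17, 8.98 and 8.93 with norepinephrine and 9.86, 9.58 and 9.57 with KCl. The gap between the groups exceeded the range within either. The means were 9.03 ± 0.13 and 9.67 ± 0.16 (SD, n = 3 each). The difference was -0.65 ± 0.19 (SE), 1.56-fold higher with KCl, with a 95% interval from -1.07 to -0.22. Its unadjusted p of 0.00792 was the lowest of the 57 members (adjusted p = 0.939 by limma). Leaving out each array in turn gave -0.72 to -0.55, and a further quantile normalization gave -0.79.

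The other delta1 genes did not separate the treatments. Pcdh9, which has a broad expression in brain, read 9.65, 10.23 and 9.77 with norepinephrine and 9.46, 10.34 and 9.67 with KCl. Replicate 2 was highest in both groups. The Pcdh9 difference was 0.060 ± 0.274 (SE) on its brighter probe set and -0.039 ± 0.293 (SE) on the other, and a further quantile normalization turned the first to -0.11. Pcdh7 and Pcdh1 stood at -0.10 and 0.10.

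Among the delta2 genes 4 of 5 read higher with norepinephrine, at a median of 0.018, and all lay between -0.18 (Pcdh8) and 0.09 (Pcdh19). Pcdh10, which recruits an actin regulator, the WAVE complex, to cell contacts, was one of the 3 brightest probe sets of the non-clustered group. Pcdh10 read 9.34, 9.16 and 9.57 with norepinephrine and 9.18, 9.26 and 9.45 with KCl. The groups overlapped throughout, and the difference was 0.057 ± 0.195 (SE), with a 95% interval from -0.39 to 0.50. Its sign turned after a further quantile normalization, at -0.11. Pcdh17 and Pcdh18 differed by 0.02 and 0.00.

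Of the 3 remaining genes of the non-clustered group, Pcdh20 stood at 0.02 and Pcdh12, an endothelial protocadherin, at -0.07. Pcdh15, the tip-link protein of hair cells, is named because of its value. Its brighter probe set read 8.50, 8.97 and 8.46 with norepinephrine and 7.95, 8.49 and 8.17 with KCl. The groups overlapped through a single pair of arrays. That probe set differed by 0.44 ± 0.23 (SE), with an unadjusted p of 0.0898 and an adjusted p of 0.939 by limma. The other Pcdh15 probe set differed by -0.08 ± 0.21 (SE).

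Cdh13, or T-cadherin, lacks the cytoplasmic tail and is held in the membrane by a lipid anchor. Cdh13 read 10.11, 10.23 and 10.12 with norepinephrine and 8.64, 9.95 and 9.87 with KCl. All norepinephrine arrays were higher, and KCl replicate 1 lay far under the other 5. The difference was 0.67 ± 0.34 (SE), 1.59-fold higher with norepinephrine, with a 95% interval from -0.093 to 1.43 (adjusted p = 0.939 by limma). Leaving out that array gave 0.25. The other 4 genes of this group, Cdh16, Cdh17, Cdh23 and Cdh26, lay between -0.18 and 0.06. Each of the 4 read higher with norepinephrine without KCl replicate 1, by 0.06 to 0.21.

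Genes that work with cadherins were read from 6 lists, and none of their members passed the test or had an unadjusted p under 0.05. Catenins and junction partners read higher with KCl in 9 of 12 measured genes, with a median difference of -0.14, or -0.13 without KCl replicate 1. Ctnna1, the alpha-catenin that binds actin, read 8.05, 8.32 and 7.70 with norepinephrine and 8.14, 8.95 and 8.27 with KCl. Its groups overlapped, and the difference was -0.43 ± 0.27 (SE). Ctnna2, the alpha-catenin of neurons, read 7.43, 7.54 and 7.42 with norepinephrine and 7.14, 7.20 and 7.13 with KCl, a difference of 0.30 ± 0.17 (SE) with no overlap. Beta-catenin (Ctnnb1) differed by -0.13 ± 0.22 (SE).

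Other genes of the cadherin superfamily read higher with KCl in 16 of 19, at a median of -0.25, with -0.04 as the value without KCl replicate 1. Fat4, a giant cadherin of planar polarity and Hippo signalling, read 8.07, 7.85 and 8.30 with norepinephrine and 8.11, 8.88 and 8.95 with KCl. KCl replicates 2 and 3 were high and replicate 1 lay among the norepinephrine arrays. The Fat4 difference was -0.57 ± 0.27 (SE), or -0.84 without KCl replicate 1. Cdhr2, a cadherin of intestinal microvilli, differed by -0.39 ± 0.26 (SE), or -0.16 without that array.

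Regulators of the protocadherin cluster, such as CTCF and cohesin, which loop enhancers to its promoters, read higher with KCl in 8 of 15, at a median of -0.027. Leaving out KCl replicate 1 made that median -0.18. Smc1a, a cohesin ring subunit, read 11.45, 11.40 and 11.37 with norepinephrine and 11.67, 11.61 and 11.65 with KCl. These groups did not overlap, and the difference was -0.23 ± 0.17 (SE). Wapl, which releases cohesin from DNA, differed by -0.35 ± 0.21 (SE), and Ctcf by 0.06 ± 0.20 (SE).

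Proteases that cut cadherins read higher with norepinephrine in 6 of 11, at a median of 0.023. Psenen, a gamma-secretase subunit, differed by 1.44 ± 0.74 (SE), or 0.38 without KCl replicate 1, and Pcsk5, a proprotein convertase, by -0.21 ± 0.21 (SE). The WAVE complex and kinases were higher with norepinephrine in 6 of 10, at a median of 0.050 on all arrays and -0.13 without KCl replicate 1. Its subunits Brk1 and Cyfip2 differed by 0.87 ± 0.45 and 0.23 ± 0.20 (SE), or 0.29 and 0.08 without that array. Cadherin repressors read higher with KCl in 5 of 7, at a median of -0.12, or 0.03 without KCl replicate 1. Twist2 and Zeb2, transcription factors of the epithelial to mesenchymal transition, differed by -0.28 ± 0.26 and 0.34 ± 0.38 (SE), or -0.034 and -0.13 without that array.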

How the data were processed

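Each deposited value is the log2 expression of a probe set, computed by the authors; RMA and Partek are the tools in the submitters' processing notes, with versions and settings not given in the sources used here. No scanner files were used, so signal over background is unknown, and the number of arrays limits the precision. Of 34760 probe sets, 21640 carried 1 gene symbol in the platform annotation, 1321 several and 11799 none. The 57 members had 61 probe sets, 4 members having more than 1, and all 57 matched RefSeq (GRCm38.p6) by Entrez identifier with 0 symbols changed. Groups came from sample titles.

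Treatments were compared by lmFit and eBayes of limma 3.58.1 under R 4.3.3 (no covariate, two-sided, Benjamini-Hochberg over all 21640 named probe sets, threshold 0.05). The code was also run on simulated data with independent noise and added differences larger than that of any member. That run therefore does not cover differences of the sizes reported here. Members and lists were chosen with earlier results of these data known. Per-array values are given for members with an unadjusted p under 0.05 or groups that do not overlap, the 3 brightest probe sets in each main group, and Cdh1, Cdh2, Cdh4, Cdh5, Cdh13, Cdh19 and Cdh20. For partner lists, the 2 members of lowest p are given, and Ctnnb1, Ctcf and Pcdh15 were added after their values were seen. Alternatives were normalization, centring, filters, a replicate block, variance moderation, weighting of arrays, the mean of probe sets, and leaving out each array.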

Additional observations from a re-analysis of the deposited data

How the results depend on the processing

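The number of arrays limits what can be seen, and of the settings run, array weights alone made any member pass. Gene-by-gene array weights, chosen after seeing the data because the default weights did not converge (they put 672.7 on KCl replicate 3 and 0.058 on KCl replicate 1) and were not used, called 1454 named probe sets and 9 members, with 17 members (29.8%) at an unadjusted p under 0.05 beside 23.9% of all named probe sets. These weights rested mainly on KCl replicate 3, at 6.76 against 0.16 for KCl replicate 1. The number of members whose groups do not overlap was 5 among the 21 members whose probe sets lay above the median, or 23.8% beside 10.8% of all probe sets kept. A further quantile normalization moved the Pcdhb median to -0.079. With that normalization and without KCl replicate 1 (also added after seeing the data), 1 named probe set passed, 8 members (14%) had an unadjusted p under 0.05 beside 6.16% of all, and the groups of 20 (35.1%) did not overlap beside 20.6% of all. The cause was not tested for any of these.

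Leaving out each array in turn gave 0 to 4 named probe sets, 0 of 57 members passing each time, and 10 to 21 members without overlap. The highest count, without KCl replicate 2, was 36.8% beside 42.2% of all named probe sets, and the lowest, without KCl replicate 3, was 17.5% beside 14.4%. Members at an unadjusted p under 0.05 were 1, 2 and 1 without norepinephrine replicates 1, 2 and 3, and 8, 7 and 2 without KCl replicates 1, 2 and 3. In the same order these were 1.75, 3.51, 1.75, 14, 12.3 and 3.51% of the members, beside 1.46, 2.07, 1.65, 4.63, 16.3 and 3.05% of all named probe sets. The medians ranged from -0.28 to -0.050 for classical cadherins, -0.25 to -0.13 for Pcdhb genes and -0.067 to 0.040 for non-clustered protocadherins.

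Same-numbered samples deviated together with correlations of 0.30, 0.63 and 0.085, so the numbers were not taken as pairs; norepinephrine replicates 1 and 2 correlated best with their own number and replicate 3 with KCl replicate 1 (0.31). With the replicate block, 0 named probe sets passed and 7 members (12.3%) had an unadjusted p under 0.05, 5 of them higher with KCl, beside 6.64% of all named probe sets.

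Signs turned for 6 of the 17 members that the rule on names picked. Leaving out single arrays gave -0.27 to 0.24 for Cdh1, -0.027 to 0.14 for Cdh20, -0.31 to 0.060 for Cdh5, -0.12 to 0.32 for Pcdh9, -0.050 to 0.16 for Pcdh10 and -0.15 to 0.16 for Pcdhb17. Cdh1 was 0.066 after quantile normalization, 0.0037 after centring, 0.052 with array weights, 0.24 without KCl replicate 1 and 0.23 with both changes. Cdh20 was -0.12, -0.082, -0.027 and -0.016 under quantile normalization, weights, without KCl replicate 1 and both. Pcdh9 was -0.11 after quantile normalization, -0.12 without KCl replicate 1, -0.098 with both, -0.11 without norepinephrine replicate 2 and -0.016 without KCl replicate 3. Pcdh10 was -0.11 after quantile normalization, -0.0065 with weights and -0.050 without norepinephrine replicate 3. Pcdhb17 was -0.13 with weights, -0.15 without KCl replicate 1, -0.17 with both and -0.0021 without norepinephrine replicate 1. Cdh5 was 0.060 without KCl replicate 1 and 0.040 with both.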

Other observations

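Probe sets whose annotation lists several symbols were outside the comparison. A single probe set listing 14 Pcdha genes, the neighbours of the Pcdhb genes, read 6.17, 5.96 and 6.14 with norepinephrine and 6.43, 5.87 and 6.04 with KCl. KCl replicate 1 was highest and KCl replicate 2 lowest, so the groups overlapped. Of the probe sets with several symbols, 3 others list Cdh11 beside a pair of unnamed transcripts. Pcdhg symbols were absent from the platform annotation of these probe sets, so those genes were not read.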
